A study of Rattus norvegicus with 16 samples.

Results

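Respiratory complexes III, IV and V of the mitochondrial inner membrane each contain subunits read from the mitochondrial genome, and 6 transcripts encode them. They are mt-Cyb for complex III, mt-Co1, mt-Co2 and mt-Co3 for complex IV, and mt-Atp6 and mt-Atp8 for complex V. Each was taken as 1 fixed Ensembl gene identifier, and all 6 were found among the 23918 genes of the count files, which give identifiers without names. The identifiers in that order are ENSRNOG00000031766.3, ENSRNOG00000034234.3, ENSRNOG00000030371.3, ENSRNOG00000030700.3, ENSRNOG00000031979.3 and ENSRNOG00000033299.3. All 6 also passed the filter on low counts, which left 14175 genes.

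The mitochondrial genome is a small circular DNA carried in many copies per cell and copied into long RNAs that are cut into separate messages. Complex III passes electrons from ubiquinol to cytochrome c, complex IV passes them on to oxygen, and complex V uses the resulting proton gradient to make ATP. Most subunits of these complexes are encoded in the nucleus, so each complex is assembled from the products of both genomes. Heart muscle is rich in mitochondria, and messages from the mitochondrial genome commonly make up a large part of its polyadenylated RNA.

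Heart RNA came from 16 adult male Wistar rats of 240 to 260 g, 1 library per rat. The controls (n = 4) received no agent, the D55 rats (n = 6) streptozotocin at 55 mg/kg and the D100 rats (n = 6) streptozotocin at 100 mg/kg, given once into a tail vein. Streptozotocin kills pancreatic beta cells, the source of insulin, and the study required a blood glucose above 13 mmol/L on the following day. Hearts were drained of blood and taken after 4 days of follow-up, so the model is one of early, chemically induced insulin deficiency, and the comparisons ask how the cardiac transcriptome differs with the dose. No glucose or insulin value per group was used here. Effects of the agent on the heart itself and of insulin deficiency cannot be told apart in this design. The whole heart was used as 1 bulk sample, in which fewer cells of a type and less RNA per cell cannot be told apart. Cell type markers were not analysed here because the files name genes by identifier alone.

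Total estimated counts were 26207101 to 48269249 in the controls, 18495170 to 48402537 in D55 and 4685336 to 25581178 in D100, where replicate F was the shallowest library of the series. Counting error was small for every transcript described here: the lowest count of any of the 6 in any library was 24012, with an exact Poisson 95% interval of 23709 to 24318, which covers counting error only. D55 replicates B and E stood apart from the other D55 libraries, as their shares below show, and results that rest on them are given with and without them. They were picked for their low shares of these same transcripts, so leaving them out raises the D55 mean share by construction. The scaling factors (trimmed mean of M values, TMM), which multiply the library total, moved with the groups: they were 0.83 to 1.27 in controls, 0.957 to 1.5 in D55, with the 2 highest values in B and E, and 0.564 to 1.03 in D100. Fits with other factors are given beside the comparisons.

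The 6 transcripts together took between 22.8% and 47.7% of all counts in a heart library, as the stacked plot of shares shows. In the controls they held 33.7, 32.9, 43.2 and 39.5% of the counts of replicates 1 to 4, a mean of 37.3% ± 4.92 (SD, n = 4). In D55 the share ran from 22.8% to 40.5% with a median of 35.6%, a mean of 33.1% ± 8.19 (SD, n = 6). In D100 it ran from 38.8% to 47.7% with a median of 46.2%, a mean of 44.4% ± 4.06 (SD, n = 6). D55 replicates B (22.8%) and E (23.6%) were the lowest of the series, and without them the D55 mean was 38.1% ± 3.73 (SD, n = 4), close to the control mean. Leaving out the lowest libraries of a group can only raise its mean. The D100 libraries overlapped both other groups, with replicates E (38.8%) and F (39.7%) in the range of the controls. All 6 were among the 10 most abundant genes of the series by mean share of counts. The other 4 genes of those 10, which the files do not name, had a mean share of 12.3% ± 2.77 for control (SD, n = 4), 10.4% ± 2.93 for D55 (SD, n = 6) and 16.4% ± 2.73 for D100 (SD, n = 6), and without D55 B and E the D55 mean was 12.1% ± 1.65 (SD, n = 4).

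**Figure D1:**
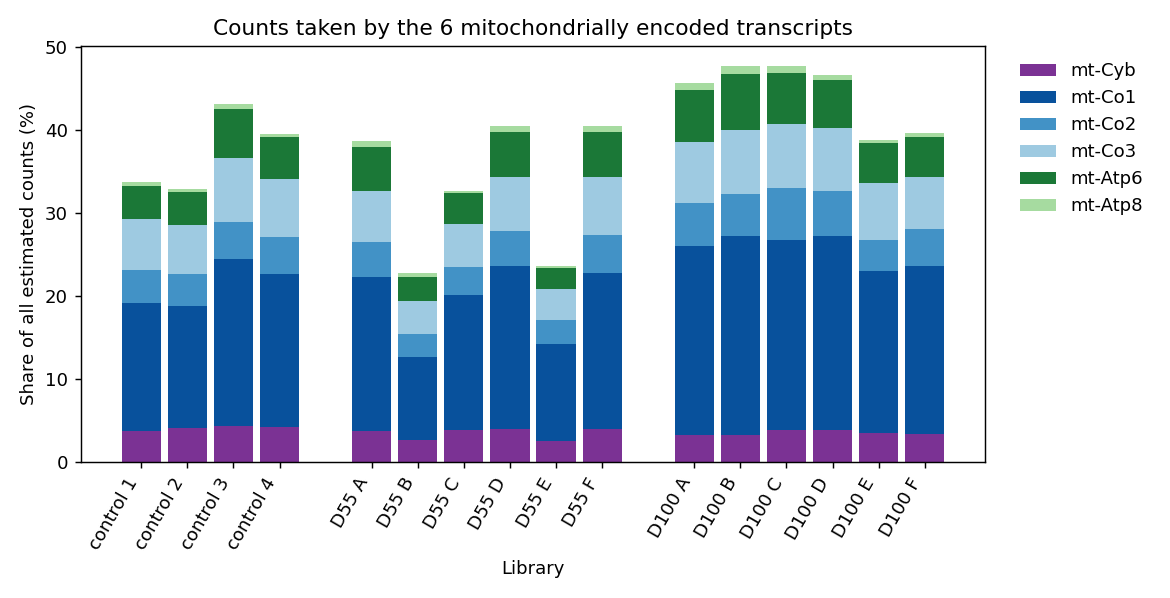
Share of all estimated counts (%, vertical axis) taken by each of the 6 transcripts in each of the 16 libraries (horizontal axis), stacked and coloured by transcript. D55 replicates B and E are lowest at 22.8% and 23.6%, and D100 replicates B and C highest at 47.7%.

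Counts also grow with transcript length, and lengths were not used here, so levels are compared between libraries for 1 transcript at a time and not between transcripts. Levels are given as CPM, counts per 1000000 of the TMM-scaled library total, in units of 1000 CPM (kCPM). The TMM scale sets the bulk of the genes equal between libraries, whereas the share of counts above uses the plain total.

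mt-Cyb encodes cytochrome b, a catalytic core subunit of complex III that carries its b-type haems and quinone sites. Its level in control replicates 1 to 4 was 30.0, 32.0, 52.1 and 40.9 kCPM. In D55 it ran from 17.2 to 41.4 kCPM with a median of 32.1, and in D100 from 32.2 to 58.5 kCPM with a median of 47.7. All 3 groups overlapped, and the means of 38.8 ± 10.1 (SD, n = 4), 29.9 ± 10.4 (SD, n = 6) and 46.0 ± 10.5 kCPM (SD, n = 6) had the smallest ratio of D100 to D55 among the 6 transcripts (1.54-fold in the edgeR fit). As a share of all counts mt-Cyb had a D100 mean below that of the controls and close to that of D55: the mean was 4.08% ± 0.245 for control (SD, n = 4), 3.47% ± 0.663 for D55 (SD, n = 6) and 3.54% ± 0.307 for D100 (SD, n = 6).

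mt-Co1 encodes the subunit of complex IV that holds the site where oxygen is reduced. It had the highest count of any gene in all 16 libraries. Its level in control replicates 1 to 4 was 123, 117, 243 and 181 kCPM. D55 libraries ran from 66.9 to 205 kCPM with a median of 146, and D100 libraries from 195 to 423 kCPM with a median of 309. D100 replicates E (195) and F (196) lay below control 3, and the other 4 D100 libraries lay above every control and every D55 library.

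mt-Co2 encodes the subunit that receives electrons from cytochrome c. Control replicates 1 to 4 held 31.6, 30.1, 54.7 and 43.2 kCPM. D55 libraries ran from 18.6 to 44.9 kCPM with a median of 32.4, and D100 libraries from 37.4 to 90.8 kCPM with a median of 71.7. The pattern of mt-Co1 was repeated, with D100 replicates E (37.4) and F (43.5) within the range of the other groups. mt-Co3 encodes the third core subunit of complex IV, which has no metal centre. Control replicates 1 to 4 held 49.5, 46.7, 91.7 and 68.5 kCPM. D55 libraries ran from 24.9 to 68.3 kCPM with a median of 47.7, and D100 libraries from 59.6 to 135 kCPM with a median of 99.0, again with overlap between all groups.

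mt-Atp6 encodes subunit a of complex V, which forms the proton path beside the rotor ring. Control replicates 1 to 4 held 31.7, 31.4, 71.2 and 49.5 kCPM. D55 libraries ran from 17.2 to 57.2 kCPM with a median of 38.4, and D100 libraries from 46.9 to 119 kCPM with a median of 80.2. Control 3 was the highest control for this transcript, as for the other 5. mt-Atp8 encodes a small membrane subunit of complex V, and its reading frame overlaps that of mt-Atp6 on a shared message. Control replicates 1 to 4 held 3.47, 2.40, 7.94 and 3.19 kCPM. D55 libraries ran from 1.18 to 8.08 kCPM with a median of 4.93, and D100 libraries from 3.66 to 17.8 kCPM with a median of 10.5. mt-Atp8 varied most between rats of 1 group: the standard deviation of its log2 level was 0.743 in controls, 1.15 in D55 and 0.872 in D100, against 0.344 to 0.753 for the other 5 transcripts over the 3 groups. Reads of the overlap can be divided between these genes, so the level of mt-Atp8 is uncertain; of its 5 estimates small enough to be written with a decimal, 4 were not whole.

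**Figure D2:**
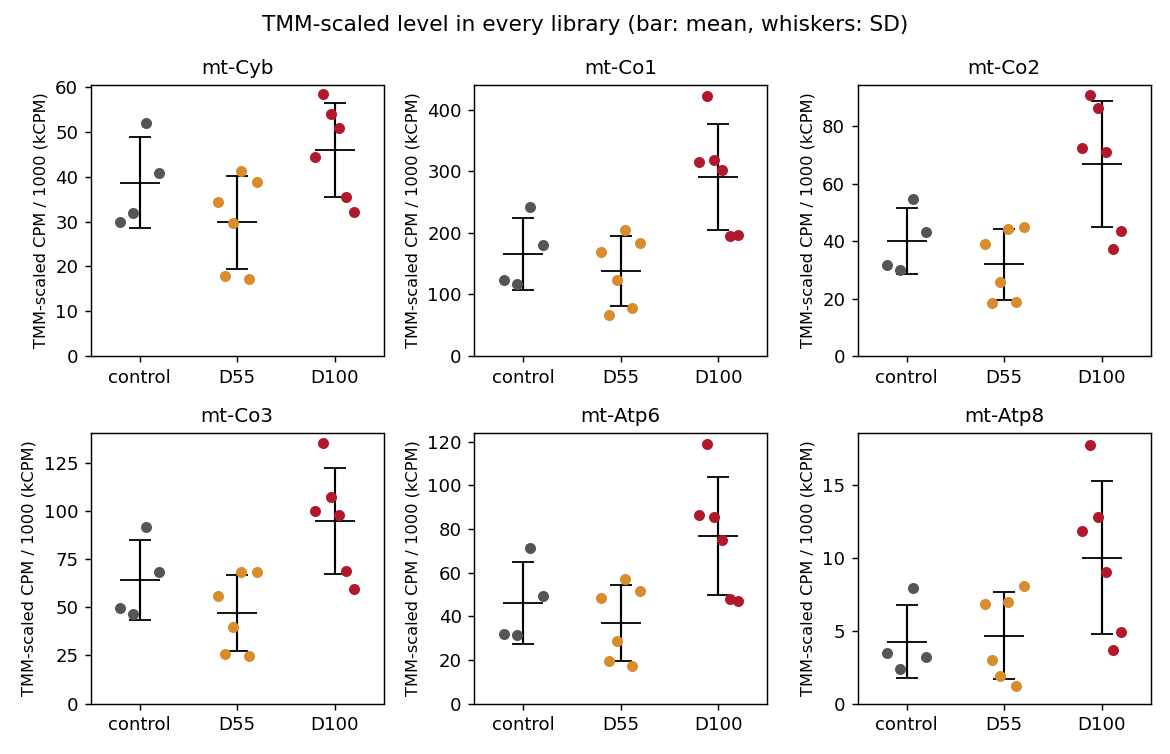
Level of each transcript (TMM-scaled kCPM, vertical axis from 0) in each library of the control (n = 4), D55 (n = 6) and D100 (n = 6) groups; points are libraries, the bar is the mean and the whiskers are the SD. The groups overlap in every panel, and the mt-Co1 panel runs from 66.9 in a D55 library to 423 in a D100 library.

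The comparison of D100 with D55 asked whether hearts of the higher dose differed from those of the lower dose. mt-Co1, mt-Co2, mt-Co3 and mt-Atp6 rose in D100, by 2.01- to 2.12-fold over D55, while mt-Cyb and mt-Atp8 did not pass the test. The mean level of mt-Co1 was 138 ± 57.0 kCPM for D55 (SD, n = 6) and 292 ± 86.0 kCPM for D100 (SD, n = 6). The fitted rise was 1.09 in log2 units (SE 0.32), with an edgeR adjusted p of 0.0230. mt-Co2 rose by 1.07 on the log2 scale (SE 0.30, edgeR adjusted p = 0.0200), mt-Co3 by 1.01 (SE 0.30, adjusted p = 0.0249) and mt-Atp6 by 1.05 (SE 0.35, adjusted p = 0.0318). For mt-Cyb the fitted value was 0.62 (SE 0.26, edgeR adjusted p = 0.0634). For mt-Atp8 it was 1.10 with a wider error (SE 0.49, edgeR adjusted p = 0.0788).

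The count of 4 of 6 higher in D100 stands against 13.7% of all 14175 genes called higher in this comparison and 35.6% called in either direction. The 6 transcripts come from the same genome and largely moved together between libraries. They are not 6 separate observations, so such counts do not measure an enrichment. An unadjusted p under 0.05 with a higher level in D100 was found for all 6, and for 22.1% of all genes. Among the 35 other genes with a mean over 1000 CPM, 14 (40.0%) were called higher. The median log2 fold change was 1.06 over the 6 transcripts and -0.03 over all genes tested. No transcript had D100 values clear of the D55 values on the CPM scale, which 4.2% of all genes tested had.

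These calls were lost in edgeR without D55 replicates B and E, together with most calls over all genes. Both were picked for low shares of these transcripts, so smaller fold changes without them follow in part from that choice. Fewer D55 libraries (n = 4) also remain. Without both, 0 of the 6 were called by edgeR, where 0.888% of all genes were, and 4 had an unadjusted p under 0.05, where 22.3% of all genes did. The number of all genes called fell from 5041 to 123. The log2 fold changes were 0.35 for mt-Cyb, 0.78 for mt-Co1, 0.80 for mt-Co2, 0.71 for mt-Co3, 0.73 for mt-Atp6 and 0.75 for mt-Atp8, with adjusted p of 0.151 to 0.329. Leaving out D55 B alone, D55 E alone or D100 B alone also left 0 calls among the 6, with median log2 fold changes of 0.93, 0.90 and 0.88, lowest adjusted p of 0.0554, 0.0542 and 0.0514, and 1172, 1403 and 1721 genes called in all. Leaving out D100 A or D100 C left 2 calls, where 13.9% and 15.3% of all genes were called. Leaving out D55 C or D100 D left 3, where 24.7% and 19.2% were. Leaving out D55 D, D55 F or D100 F gave 5 (47.6%, 37.6% and 47.3%), and leaving out D100 E gave 6 (46.3%). With all libraries, DESeq2 and limma-voom each called all 6 in this comparison, among 6600 and 7068 genes called in all. The limma-voom fits here and below gave each library a quality weight. Adjusted p was 0.00193 to 0.0396 in DESeq2 and 0.00168 to 0.0344 in limma-voom.

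**Figure D3:**
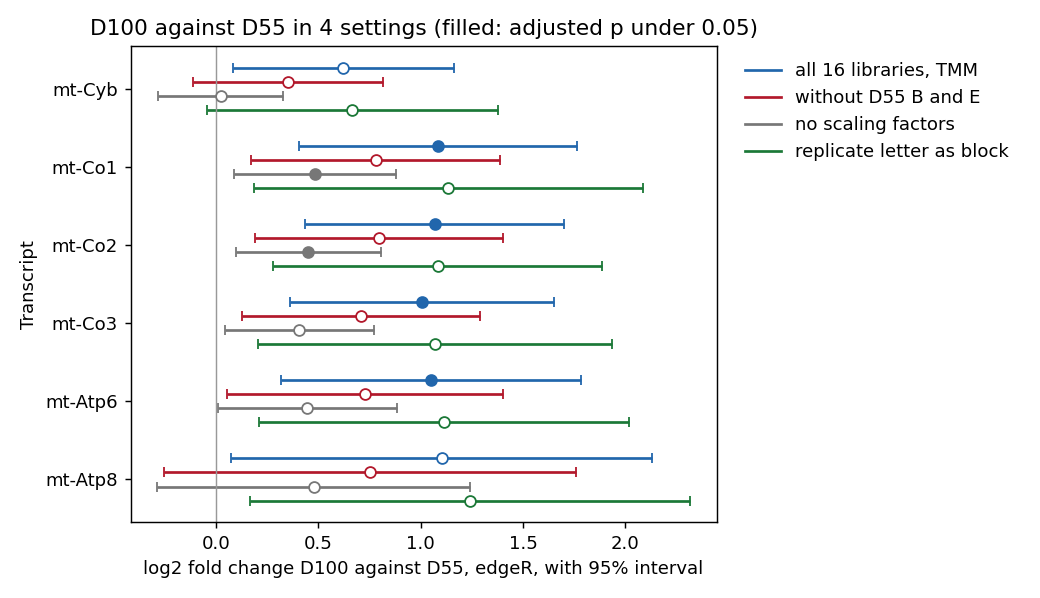
log2 fold change of D100 against D55 (horizontal axis) with its 95% interval from edgeR for each transcript in 4 settings: all libraries with TMM scaling, without D55 B and E, without scaling factors, and with the replicate letter as a block. Filled points have an adjusted p under 0.05, and every point estimate lies above 0, with mt-Cyb nearest to 0 at 0.03 (0.025 before rounding) without scaling factors.

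Without scaling factors, that is on the share of counts, mt-Co1 and mt-Co2 were called higher in D100 than in D55, as were 0.995% of all genes, while 6875 genes were called lower. The median log2 fold change of all genes moved from -0.03 to -0.66 there. Relative to that median the 6 transcripts were 0.68 to 1.14 higher without scaling factors and 0.65 to 1.13 higher with them. Scaling factors by the DESeq2 method, by TMM without the 6 transcripts, and by TMM without the 10 most abundant genes each gave 4 calls among the 6, with median log2 fold changes of 1.08, 1.07 and 1.05. In these settings 37.5%, 34.2% and 34.7% of all genes were called in either direction.

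The comparison of D100 with control gave no call among the 6: 0 passed in edgeR and 3 (mt-Co1, mt-Co2 and mt-Atp8) had an unadjusted p under 0.05 with a higher level in D100, as 11.3% of all genes did. Of all genes tested, 4.38% were called and 1.92% were called higher in D100; of the 35 other abundant genes, 11.4% were called higher. Groups that did not overlap on the CPM scale were found for 7.57% of all genes and for 0 of the 6. All 6 fitted changes were above 0 on the TMM scale, with a median of 0.74 against -0.03 over all genes. mt-Atp8 had the largest fitted value at 1.24 in log2 units, with an SE of 0.56 and a 95% interval of 0.06 to 2.42 (edgeR adjusted p = 0.202). mt-Co1 followed at 0.81 (SE 0.36, adjusted p = 0.199), mt-Co2 at 0.75 (adjusted p = 0.202), mt-Atp6 at 0.74 (adjusted p = 0.263) and mt-Co3 at 0.56 (adjusted p = 0.322). mt-Cyb was lowest at 0.25 (SE 0.29, edgeR adjusted p = 0.597), and its value turned to -0.21 without scaling factors. The others ran from 0.10 (mt-Co3) to 0.755 (mt-Atp8) there, and the median of all genes was -0.48. In that setting 0 of the 6 had an unadjusted edgeR p under 0.05, where 4274 of 14175 genes did. The count was also 0 without control 1, 2 or 4 or without D100 A, B or C. In those fits 1.25% to 2.46% of all genes passed with adjusted p. DESeq2 called 0 of the 6, where it called 10.1% of all genes. limma-voom with its quality weights called all 6, where it called 9594 genes (67.7%).

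The comparison of D55 with control also gave 0 calls among the 6 in edgeR, in DESeq2 and in limma-voom, and 0 with an unadjusted p under 0.05 in edgeR. Of all genes tested, edgeR called 0.0635%, DESeq2 0.621% and limma-voom 3.68%. An unadjusted edgeR p under 0.05 in either direction was found for 1271 of 14175. Such a p with a higher level in D55 was found for 5.88%. Groups that did not overlap on the CPM scale were found for 2.55% of all genes and for 0 of the 6. The fitted log2 fold changes were -0.38 for mt-Cyb, -0.27 for mt-Co1, -0.32 for mt-Co2, -0.44 for mt-Co3, -0.31 for mt-Atp6 and 0.14 for mt-Atp8, with adjusted p of 0.627 to 0.934. Without D55 B and E they were -0.11, 0.03, -0.05, -0.15, 0.01 and 0.48 in that order, nearer to 0 for the first 5, and the sign of mt-Co1 and mt-Atp6 turned. B and E were picked for low shares of these transcripts, so this upward shift follows in part from the choice. The 95% interval of mt-Co1 with all libraries, -1.02 to 0.47, holds changes of either sign. In the order of group means D55 was lowest, control next and D100 highest for 5 transcripts, and for mt-Atp8 control was lowest, and for none of the 6 did neighbours in that order pass the edgeR test with adjusted p. These comparisons share libraries, so their values are set side by side and their likeness is not read as a result.

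**Figure D4:**
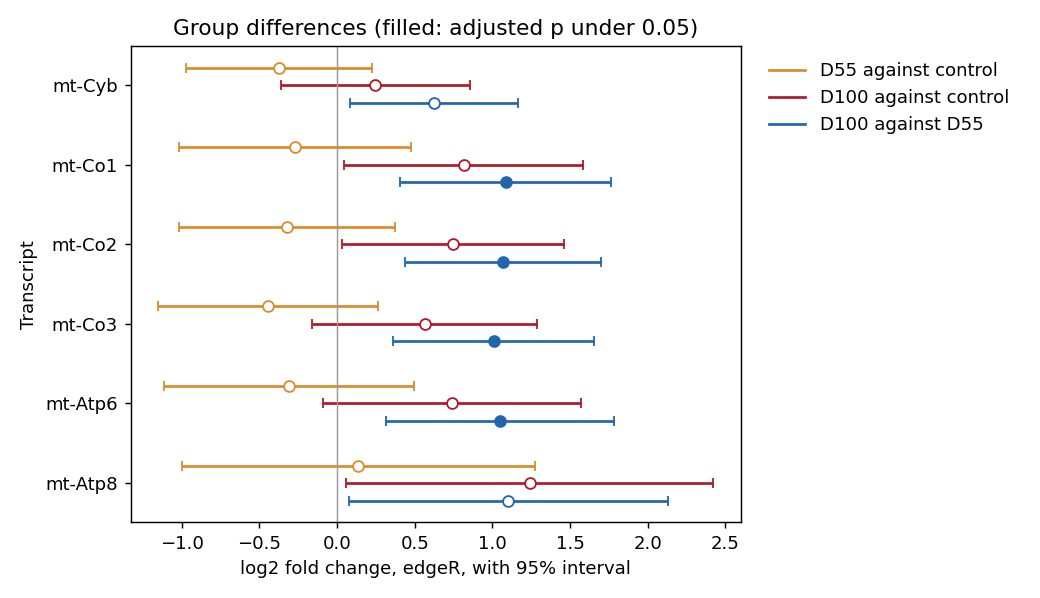
log2 fold change (horizontal axis) with its 95% interval from edgeR for each of the 6 transcripts in the 3 comparisons, fitted over 16 libraries; filled points have an adjusted p under 0.05. The 4 filled points, between 1.01 and 1.09, are mt-Co1, mt-Co2, mt-Co3 and mt-Atp6 in D100 against D55.

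The makeup of the pool of 6 transcripts was then compared, since the share of each within their summed count does not depend on how a library is scaled. Within a group the makeup of the pool varied less than its size: the SD of the log2 share of mt-Co1 was 0.0259 in controls, 0.0661 in D55 and 0.031 in D100, against 0.496, 0.673 and 0.439 for its log2 level in CPM. mt-Co1 is itself a large part of the pool, which narrows the spread of its share. For mt-Cyb the contrast was smaller, with 0.128, 0.137 and 0.158 for the share against 0.363, 0.558 and 0.344 for the level. The share of mt-Atp8 was the least steady, with an SD of 0.413, 0.692 and 0.44 in the same groups. mt-Cyb made up less of the pool in D100. It took 11.1, 12.3, 10 and 10.6% of the pool in control replicates 1 to 4. In D55 it took 9.73% to 11.9% with a median of 10.4%, and in D100 6.93% to 9.16% with a median of 8.28%. Every D100 library lay below every control and every D55 library, B and E included. Among all genes 6.75% had a ratio to the pool that was lower in every D100 library than in every control, and 11.1% one that was lower than in every D55 library.

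mt-Co1 made up 44% to 51.2% of the pool, so the ratio of mt-Cyb to mt-Co1 largely restates that share. Per 100 mt-Co1 counts, the controls had 21.5 to 27.3 mt-Cyb counts (mean 23.9 ± 2.57, SD, n = 4). D55 had 20.2 to 26.6 (mean 22.4 ± 2.52, SD, n = 6) and D100 had 13.8 to 18.2 (mean 16.1 ± 1.74, SD, n = 6). Of all genes tested, 10.5% had a ratio to mt-Co1 that was lower in every D100 library than in every control, and 16% one that was lower than in every D55 library. D55 and control overlapped for mt-Cyb, where 0.24% of all genes were lower in every D55 library.

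With the summed count of the 6 as the library total in the edgeR fit of all genes, a test chosen after these values were seen, mt-Cyb fell relative to the pool in D100. It fell by 0.46 on the log2 scale against control (SE 0.12, edgeR adjusted p = 0.0376) and by 0.41 against D55 (SE 0.11, adjusted p = 0.00624). The median log2 fold change of all genes was -0.74 and -1.18 in these comparisons, so mt-Cyb fell less than the median gene. On this scale 4.89% of all genes were called lower than in control and 74.8% lower than in D55, so the call against D55 is one that most genes shared. The other 5 transcripts were not called in any comparison on this scale, where 5.06% of all genes were called in either direction against control, 74.9% against D55 and 0.00705% in D55 against control. Against D55 the call held without each of the 16 libraries in turn (adjusted p of 0.00424 to 0.0175) and was lost without B and E together (log2 fold change -0.36, adjusted p = 0.0681). Calls over all genes moved with it: 8707 of 13996 genes were called lower without D55 B alone, and 156 of 13854 without B and E. Against control the mt-Cyb call held in 9 of 16 and was lost without control 1, 2 or 4 or without D100 A, B, C or D (adjusted p up to 0.163), with log2 fold changes of -0.50 to -0.40 throughout. Over all genes, 495 to 1801 were called lower where it held and 77 to 286 where it was lost. D55 against control had a change of -0.05 (SE 0.12, adjusted p = 0.81).

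mt-Co1 and mt-Co3 each had a share of the pool that did not overlap in 1 comparison. mt-Co1 took 45.7, 45.1, 46.6 and 46.9% of the pool in control replicates 1 to 4, and 48.0% to 51.2% in D100 with a median of 50%. D55 libraries, at 44.0% to 49.6%, spanned both. mt-Co3 took 18.4, 18, 17.6 and 17.7% in control replicates 1 to 4, and 15.8% to 17.3% in D55 with a median of 16%. Its D100 libraries ran from 15.5% to 17.7%, and replicate E (17.7%) alone reached the controls. Among all genes, the ratio to the pool did not overlap for 7.17% in D100 against control, 0.889% in D55 against control (0.233% lower in D55) and 11.1% in D100 against D55. The edgeR changes relative to the pool were small for both and did not pass: 0.11 for mt-Co1 in D100 against control (adjusted p = 0.313) and -0.13 for mt-Co3 in D55 against control (adjusted p = 0.466). mt-Co2 and mt-Atp6 kept nearly equal mean shares, 11.2, 11.2 and 11.3% for mt-Co2 and 12.6, 12.6 and 12.9% for mt-Atp6 in control, D55 and D100.

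**Figure D5:**
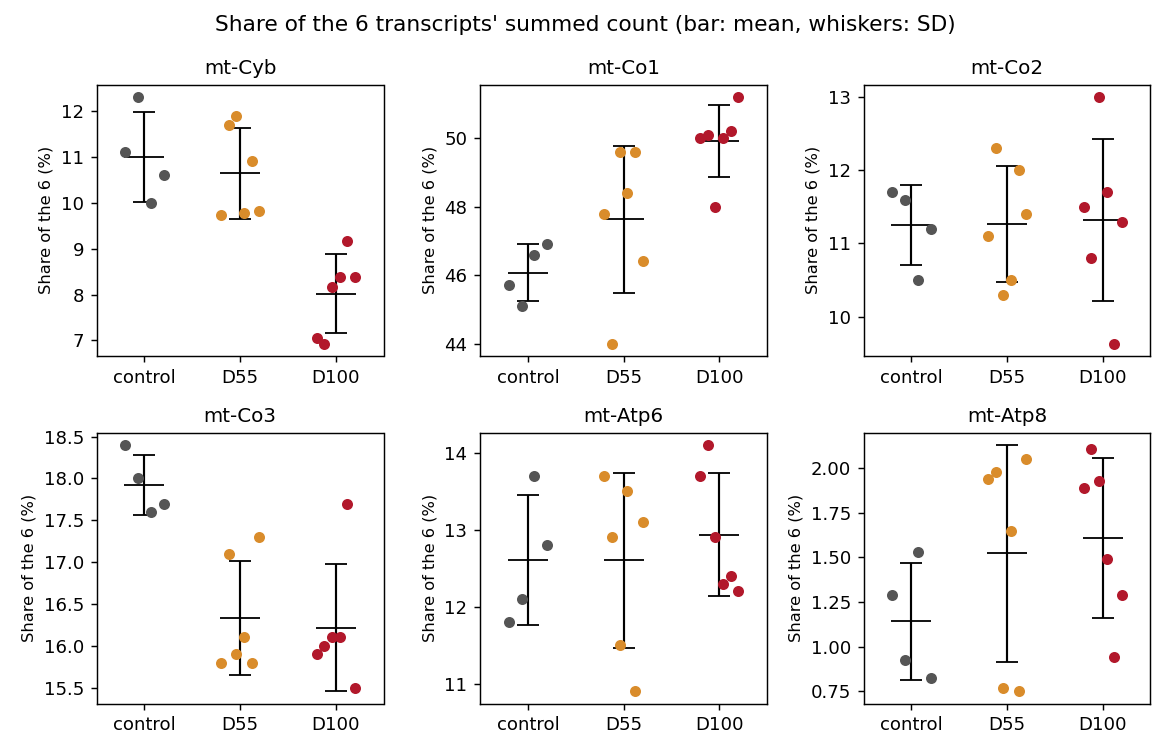
Share of the 6 transcripts' summed count (%, vertical axes that do not start at 0 and differ between panels) taken by each transcript in control (n = 4), D55 (n = 6) and D100 (n = 6); points are libraries, the bar is the mean and the whiskers are the SD. For mt-Cyb all D100 libraries (6.93% to 9.16%) lie below the others (9.73% to 12.3%).

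mt-Atp8 and mt-Atp6 share a message, and their ratio within a library is free of scaling, yet it varied more than 2-fold between rats. Control replicates 1 to 4 had 11, 7.64, 11.2 and 6.43 mt-Atp8 counts per 100 mt-Atp6 counts. D55 libraries ran from 6.68 to 15.6 with a median of 13.2, and D100 libraries from 7.61 to 14.9 with a median of 13.0. Low values occurred in each group, in control 2 and 4, in D55 C and E and in D100 E, and the groups overlapped. The mean log2 ratio was 0.45 higher in D100 than in control (exact two-sided permutation p = 0.119, 0.357 adjusted over the 3 comparisons). D55 was 0.34 higher than control (exact permutation p = 0.29, adjusted 0.436), and D100 was 0.11 higher than D55 (exact permutation p = 0.736). None of the 3 differences passed the test.

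Other genes followed the summed level of the 6 from library to library. Among 841 other genes with a mean of at least 100 CPM, ENSRNOG00000016459.6 and ENSRNOG00000004629.6 had the highest Pearson correlations of log2 CPM with it over the 16 libraries, each 0.99, with Spearman's rho of 0.95 and 0.968. All these values share the TMM factor of their library, and the correlations are a description with no test. ENSRNOG00000016459.6 had mean levels of 0.242 ± 0.0847 kCPM for control (SD, n = 4), 0.211 ± 0.107 for D55 (SD, n = 6) and 0.464 ± 0.145 for D100 (SD, n = 6). ENSRNOG00000004629.6 stood at 0.326 ± 0.107, 0.258 ± 0.125 and 0.594 ± 0.225 kCPM in the same groups. With the group means removed, the correlations were 0.985 and 0.981. Both genes had been picked from the 841 for their high correlation over these same 16 libraries, so high values here were likely from the outset. They describe the picked genes and are no separate test of the likeness between rats of 1 group.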

How the data were processed

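Each library has 1 deposited gene-level table of estimated counts, which the authors obtained with kallisto 0.43.1, with Rnor_6.0 as the build (both per the submitters' processing notes). This tool divides reads that fit several transcripts, so estimated counts need not be whole, and nuclear copies of mitochondrial sequence or overlapping reading frames can share reads. Per the labels' protocols a stranded kit selected polyadenylated RNA out of 400 ng, so the values depend on how well the tails of mitochondrial messages were captured. For the annotation release and strand setting the sources used here give nothing.

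Estimates were rounded and analysed in R 4.3.3 with edgeR 4.0.16: filterByExpr, TMM, and a quasi-likelihood fit of 3 group coefficients over 16 libraries. P-values were adjusted by Benjamini-Hochberg over all 14175 genes tested, with a threshold of 0.05. The test was tried on simulated counts. The ratio of mt-Atp8 to mt-Atp6 was compared by exact permutation (scipy 1.17.1). Alternatives used DESeq2 1.42.0, limma 3.58.1 (limma-voom with a quality weight per library), other scalings, filters and sample sets. The members, lists and alternatives were chosen with earlier results of these data known. Named genes were the 6 transcripts and the 2 other genes most like their sum. Gene lists of nuclear subunits, assembly factors and cell type markers, fixed by symbol, were not analysed here: the reference table pairs 0 of its 47357 rows with Ensembl identifiers. The labels give each library its own rat and name no batch.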

Additional observations from a re-analysis of the deposited data

Results flagged for a closer look

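The share of mt-Co3 in the summed count of the 6 transcripts was 17.7% in D100 replicate E, far above the other 5 D100 libraries, whose values lay between 15.5% and 16.1%. Its gap to the nearest library was 0.728 of the group's range. It was the only library to stand apart in this way among 66 groups of values checked over shares, levels and ratios. Chance gives about 1 in 20, so 1 among 66 is no more than chance would give.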

How the results depend on the processing

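In D100 against control, 0 of the 6 transcripts were called in edgeR, where 4.38% of all genes were. limma-voom called 6, where it called 67.7% of all genes. Without D55 B and E and D100 F, 2 were called (mt-Co1 and mt-Co2), as were 19.8% of all genes. In D100 against D55, 4 were called, where 35.6% of all genes were. DESeq2 called 6 (46.6% of all genes called) and limma-voom 6 (49.9%). The 2 groups alone gave 3 (22.7%), and no scaling factors gave 2 (49.5%). Without D55 B and E 0 were called (0.888%), as without D55 B and E and D100 F (2.48%). When 1 library was left out, 0 to 6 were called, where 8.37% to 47.6% of all genes were. With the replicate letter as a block, 0 were called (adjusted p of 0.0621 to 0.13), as were 0 of all genes; libraries of the same letter had deviations correlated between -0.501 and 0.628, and 3 of 12 correlated best with their own letter, so the letters were not taken as pairs. In D55 against control, 0 were called in every alternative.

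Fitted directions turned for mt-Cyb in D100 against control without scaling factors (-0.21). In D55 against control they turned with limma-voom for mt-Cyb (0.15), mt-Co1 (0.38), mt-Co2 (0.26), mt-Co3 (0.19) and mt-Atp6 (0.45). They turned without D55 B and E for mt-Co1 (0.03, 0.032 before rounding) and mt-Atp6 (0.01, 0.012 before rounding), and with D100 F left out too (0.032 and 0.013). Leaving out 1 library gave -0.09 to 0.63 for mt-Atp8 there. Relative to the pool, it gave -0.092 to 0.01 for mt-Cyb in D55 against control and -0.04 to 0.01 (-0.037 to 0.006) for mt-Co3 in D100 against D55. The log2 ratio of mt-Atp8 to mt-Atp6 in D100 against D55 ran from -0.04 to 0.24. With the 10 most abundant other genes left out of the total, the 6 held 44.2% in controls and 54.7% in D100. The cause of these shifts was not tested.

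Over all genes, calls ran from 180 (without control 1) to 9594 (limma-voom) around 621 in D100 against control. They ran from 0 to 522 around 9 in D55 against control, and from 0 (block) to 7068 (limma-voom) around 5041 in D100 against D55.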
